A study of Oreochromis niloticus with 9 samples.

Results

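The liver transcriptome of tilapia fed any diet with apple peel powder (APP) was compared with that of tilapia fed the control diet without it. The 6 libraries of the APP_A group (0.2% APP) and the APP_H group (0.8% APP) were pooled and set against the 3 libraries of the control group C (0% APP), so that all 9 libraries of the series were used. Of 37283 loci in the table, 20575 had an FPKM (fragments per kilobase of transcript, scaled to the number of mapped fragments) of at least 1 in at least 3 libraries and were tested. Of these, 9534 carried a gene symbol, 1390 carried an Ensembl identifier only and 9651 carried no gene name. Whether loci without a gene name overlap annotated genes was not examined as a set. A gene was said to have moved the same way at both levels when the means of APP_A and of APP_H on the log2(FPKM + 1) scale each differed from C by at least 1 in the same direction and none of the 6 APP libraries overlapped a C library. Both levels were set against the same C libraries, so the 2 differences of a gene are not independent of each other, and that count has no test of its own.

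All fish were genetically improved farmed tilapia (GIFT, Oreochromis niloticus), the selected strain of Nile tilapia that is widely farmed. They were juveniles kept on their diets for 8 weeks, and each library was made from pooled liver RNA of fish from a single tank. The APP was a commercial powder that replaced part of the cellulose of the diet, and the other listed ingredients were shared. More APP thus came with less cellulose, and these cannot be told apart. Since each library is a pool of 1 tank, p-values measure the spread between these pools, and a tank cannot be told apart from its pool.

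The liver takes up nutrients that arrive from the gut, makes and oxidizes fatty acids, synthesizes cholesterol, bile acids and most plasma proteins, and clears foreign compounds. Apple peel is rich in polyphenols and fibre, which have been studied for effects on blood lipids and on oxidative stress. In Nile tilapia, as in many bony fishes, exocrine pancreas can lie within the liver, so a piece of liver can hold digestive enzyme transcripts besides those of hepatocytes, blood cells and vessels.

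The libraries carried the transcripts of liver, with 42 of 45 hepatocyte marker loci passing the filter, although mat1a, a liver methionine enzyme, was listed at 0 in every library. APP_H3 stood apart from the other 8 libraries. Its mean correlation with them across loci was 0.452, whereas the other libraries averaged between 0.646 and 0.678. In APP_H3, 41 of the 42 hepatocyte markers were below the median of the others, and their summed FPKM was 5511, against 54424 to 144587 in the other 5 APP libraries and 66983 to 99372 in C. Erythroid markers summed to 4746 FPKM in APP_H3, against 582 to 1676 in the other APP libraries and 468 to 889 in C. In bulk RNA, fewer cells of a type and less RNA per cell cannot be told apart. Counts of called loci and of loci that moved the same way are therefore given with and without it. So are pooled gene list medians and those fold changes that APP_H3 moved by more than 1.5 times. Counts by unadjusted p and by no overlap are given with all libraries only.

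**Figure D1:**
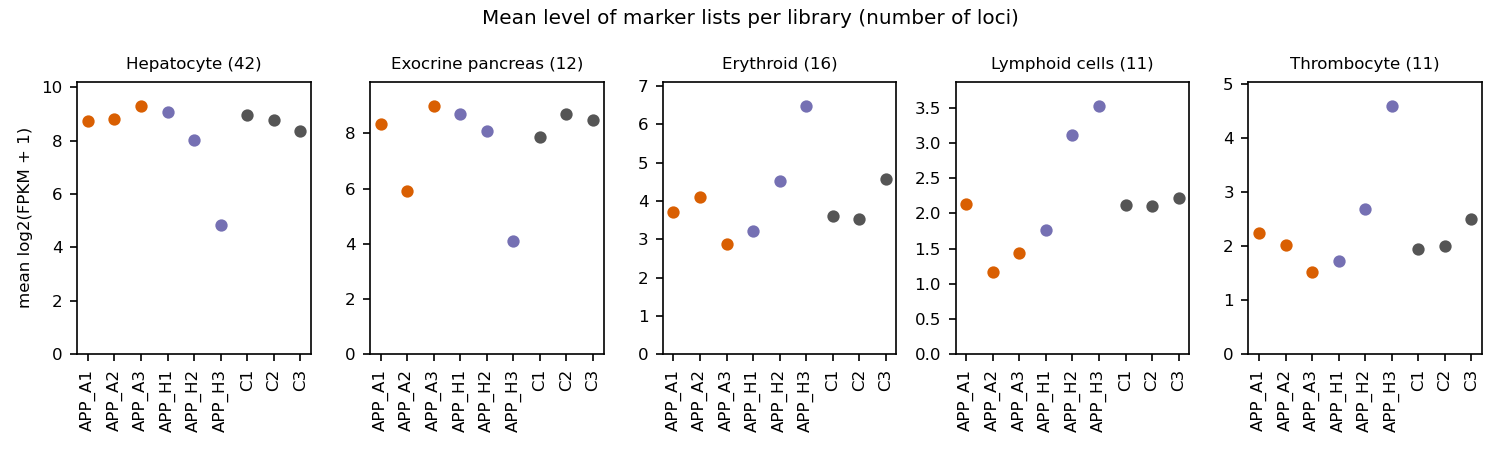
Mean log2(FPKM + 1) over the tested loci of 5 marker lists (vertical axis) in each of the 9 libraries (horizontal axis, APP_A, APP_H and C from left to right, 1 point per library). APP_H3 has the lowest hepatocyte mean, 4.83, where the other libraries lie between 8.03 and 9.29, and the highest erythroid, lymphoid and thrombocyte means.

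With both levels pooled, few loci differed between APP and C beyond the spread between pools, which here includes the difference between the 2 diets. By limma with Benjamini-Hochberg adjustment over all 20575 loci, 12 loci passed a |log2 fold change| of at least 1 with an adjusted p under 0.05, which is 0.0583% of the loci tested. Of these, 2 were higher in APP (0.00972%) and 10 were lower (0.0486%). None carried a gene symbol, 1 carried an Ensembl identifier and 11 carried no gene name. At an unadjusted p under 0.05 there were 611 loci (2.97%), 199 higher (0.967%) and 412 lower in APP. That share is under the 0.05 that the threshold itself allows without any difference between the sets. The 6 APP libraries did not overlap the 3 C libraries for 392 loci (1.91%), of which 154 were higher (0.748%) and 238 lower (1.16%), and 114 loci (0.554%) moved the same way at both levels, 26 higher (0.126%) and 88 lower (0.428%). Among loci without overlap, one with fewer than 3 APP libraries at 1 FPKM needed C to pass the filter and could only be lower. One with no C library at 1 FPKM could only be higher. How many of the 392 and the 114 were of these kinds was not counted. Genes with a symbol made up 10 of those 114, which is 0.105% of all tested genes with a symbol. Loci without a gene name made up 98, or 1.02% of their kind.

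**Figure D2:**
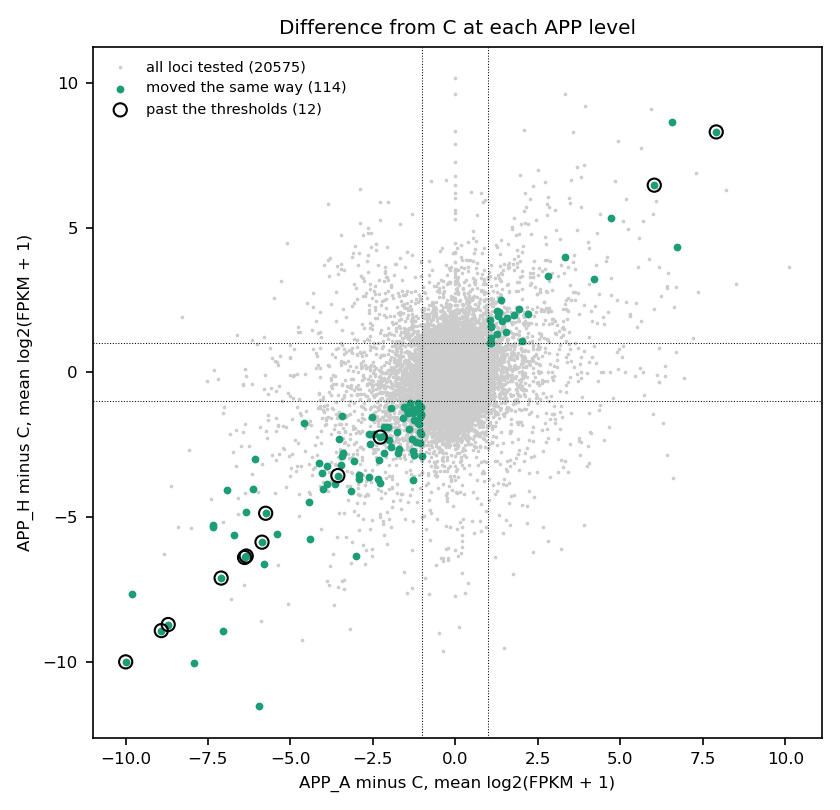
Difference in mean log2(FPKM + 1) of APP_A from C (horizontal axis) and of APP_H from C (vertical axis) for each locus tested, with dotted lines at differences of 1. Grey points are all 20575 loci, green points the 114 that moved the same way at both levels and black circles the 12 past the thresholds; 88 of the green points lie in the lower left corner and 26 in the upper right.

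The called locus that carried an Ensembl identifier was XLOC_003597 (ENSONIG00000001711, listed at GL831140.1 from 440621 to 442850). Its FPKM was 0, 0 and 0.25 in APP_A and 0.21, 0.13 and 0 in APP_H, against 4.24, 4.76 and 3.73 in C. All 6 APP libraries thus lay close to 0 and all 3 C libraries near 4. The log2 fold change was -2.26 ± 0.19 (SE, adjusted p = 0.0026), and it stayed past the thresholds when any single library was left out. No APP library reached the 1 FPKM that the filter asks for, so XLOC_003597 passed only through C and was bound to be lower in APP. With the smaller pseudocounts of 0.1 and 0.01 it was no longer called, and a filter of at least 5 FPKM in 3 libraries removed it from the test.

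The other 11 called loci were present in one set of libraries and listed at 0 in nearly all of the other. XLOC_027362 had FPKM values of 656, 88.1 and 235 in APP_A and 195, 197 and 808 in APP_H, and was listed at 0 in the 3 C libraries (adjusted p = 0.0029). XLOC_036970 had 65.8, 55.2 and 73.2 in APP_A and 64.8, 195 and 52.2 in APP_H, and was likewise listed at 0 in C (adjusted p = 0.00069). These were the 2 loci called higher. Both passed the filter only through APP and were bound to be higher in APP. They also lost their call when zeros were treated as missing wherever the other 8 libraries had a median of at least 10 FPKM, which leaves them no C value. In the opposite direction, 8 loci were listed at 0 in all 6 APP libraries. Of these, XLOC_036321 had 3395, 710 and 439 FPKM in C, XLOC_015930 had 194, 1469 and 393, and XLOC_000265 had 122.9, 658 and 891. XLOC_012219 was listed at 0 in 5 APP libraries and at 5.33 in APP_H2, against 30.5, 55.2 and 87.3 in C. It lost its call in 8 of the 9 fits that left out a single library, and XLOC_034010, listed at 0 in APP and at 20.9, 76.6 and 347 FPKM in C, lost it in 5.

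These loci were short. The 12 called loci spanned 155 to 2230 bases with a median of 204, where the median span of all loci tested was 4210 bases. Loci under 500 bases were 10 of the 12, against 20.3% of all loci tested, and FPKM of so short a transcript rests on few positions. A locus listed at 0 in all 6 APP libraries passed the filter only through C and so had to differ. Only 10 tested loci were of that kind, 8 of them called, while 327 tested loci were listed at 0 in all 3 C libraries. Those 327 passed the filter only through APP and so had to be higher in APP, and 2 of them were called. In this table a 0 may also stand for a value that was not estimated: 1411 tested loci were listed at 0 in some library although the median of the other 8 was at least 10 FPKM. Apart from these, apoa1a, an apolipoprotein of high density lipoprotein, was listed at 0 in APP_A2, APP_H1, APP_H2 and the 3 C libraries and at 30624, 43942 and 1895 FPKM in APP_A1, APP_A3 and APP_H3.

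**Figure D3:**
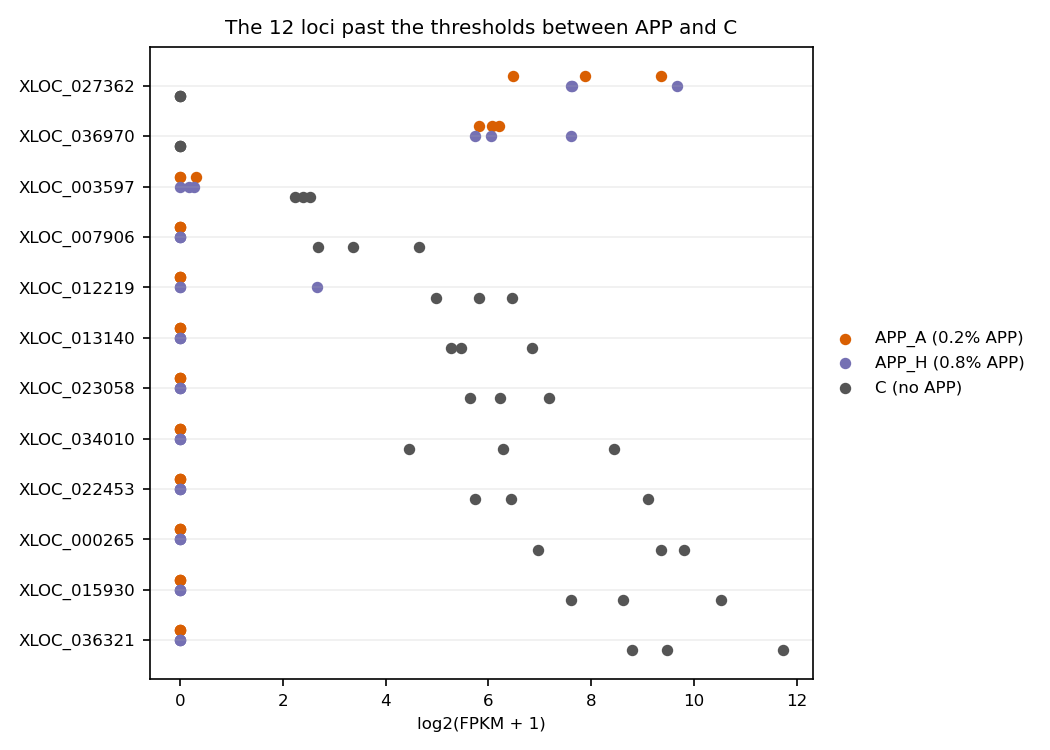
Level of the 12 loci past the thresholds as log2(FPKM + 1) (horizontal axis), 1 row per locus and 1 point per library, coloured by diet. In 8 rows all APP points sit at 0 and in the 2 uppermost rows all C points do; the C libraries of XLOC_003597 lie between 3.73 and 4.76 FPKM.

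Of the 10 genes with a symbol that moved the same way at both levels, 9 were lower in APP and 1 was higher, and none reached an adjusted p under 0.05 (limma, Benjamini-Hochberg, lowest 0.165). Since the definition asks for no overlap, the exact two-sided permutation p of each was bound to be 0.0238, the smallest that 6 against 3 libraries allow, and it adds nothing to the choice. The genes have differing roles in nucleoside, lipid and citrate metabolism and in regulation.

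The 2 nucleoside genes lay on opposite sides of C. SLC29A2 (1 of many), an equilibrative nucleoside transporter, had FPKM values of 5.04, 7.33 and 5.2 in APP_A and 4.72, 17.4 and 7.35 in APP_H, against 2.14, 2.62 and 1.88 in C. Every APP library was above every C library, APP_H2 by the most, and the log2 fold change was 1.33 ± 0.38 (SE, adjusted p = 1.00). A second locus of that name, XLOC_035264, ranged over 0.24 to 1.76 FPKM in APP and 0.41 to 0.69 in C, with overlap. The gene cda, cytidine deaminase of pyrimidine salvage, had 1.99, 1.64 and 1.83 in APP_A and 2.90, 1.71 and 1.19 in APP_H, against 10.3, 4.49 and 4.24 in C. The APP libraries lay within a narrow band below C, with a log2 fold change of -1.28 ± 0.30 (SE, adjusted p = 0.994). By level, cda differed from C by -1.29 in APP_A and -1.27 in APP_H.

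Among genes of lipid and carbon metabolism, slc13a5a, a plasma membrane citrate transporter that supplies cytosolic citrate, had FPKM values of 49.8, 92.7 and 120 in APP_A and 102, 69.3 and 3.53 in APP_H, against 179, 179 and 164 in C. APP_H3 was far below the rest. The log2 fold change was -1.76 ± 0.99 (SE) with it and -1.06 ± 0.32 without it. The gene dgke, a diacylglycerol kinase that turns diacylglycerol into phosphatidic acid, had 43.7, 50.5 and 37.9 in APP_A and 41.4, 33.4 and 1.21 in APP_H, against 123.7, 141 and 68.3 in C. Apart from APP_H3, its APP libraries kept within a narrow range, and the log2 fold change was -2.06 ± 0.98 (SE) with APP_H3 and -1.35 ± 0.30 without it. For pigh, a subunit of the enzyme that starts synthesis of GPI anchors, the values were 0.47, 3.48 and 2.14 in APP_A and 0, 1.07 and 1.46 in APP_H, against 3.54, 7.07 and 4.53 in C. The highest APP library of pigh almost reached the lowest C library.

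Of the genes with regulatory roles, PDE1B, a calmodulin-dependent phosphodiesterase that breaks down cyclic nucleotides, had FPKM values of 28.3, 32.4 and 3.18 in APP_A and 15.6, 5.28 and 3.94 in APP_H, against 35.2, 41.7 and 38.7 in C. The C libraries lay close together while the APP libraries ranged widely. The transcription factor tfcp2l1 had 7.48, 3.87 and 6.66 in APP_A and 8.56, 3.03 and 1.32 in APP_H, against 13.4, 17.5 and 11.7 in C, with a log2 fold change of -1.44 ± 0.46 (SE). The opioid peptide precursor penka had 0.25, 0.63 and 2.07 in APP_A and 1.08, 1.31 and 0.09 in APP_H, against 2.18, 3.74 and 4.32 in C. All 3 genes were below C in every APP library, as the definition asks.

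The histone deacetylase hdac9b (XLOC_024289) was listed at 0 in all 6 APP libraries and had 1.92, 11.4 and 15.3 FPKM in C. It passed the filter only through C, and its adjusted p was 0.165 over all libraries and 0.00054 when C1 was left out. The uncharacterized gene zgc:162608 was the most abundant of the 10 genes, with 141, 385 and 223 FPKM in APP_A and 85.4, 140 and 5.47 in APP_H, against 676, 661 and 404 in C. Its log2 fold change was -2.51 ± 1.15 (SE) with APP_H3 and -1.72 ± 0.50 without it.

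Some of these loci share their listed coordinates with another locus, where reads of overlapping transcripts may be divided, and a use of strand in the read assignment is not given in the sources used here. Loci with such a partner were 4 of the 10 genes and 15.0% of all loci tested. A second hdac9b locus, XLOC_024354, was listed at 0.11 to 0.83 FPKM in APP and 0.23 to 0.38 in C. A second dgke locus, XLOC_015098, had 2.05 to 4.37 in APP and 1.81 to 2.17 in C. Only APP_H3, at 2.05, overlapped C, and the other APP libraries were above it, the opposite direction to the first dgke locus. Whether reads were divided between the 2 loci was not tested. The partner of cda was dnajc16l, a relative of a co-chaperone, at 1.40 to 3.13 in APP and 2.02 to 2.81 in C. The partner of zgc:162608 was si:dkey-103g5.3, which had 0.16 to 2.91 in APP and 3.07 to 3.63 in C and so was also below C in all 6 APP libraries.

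**Figure D4:**
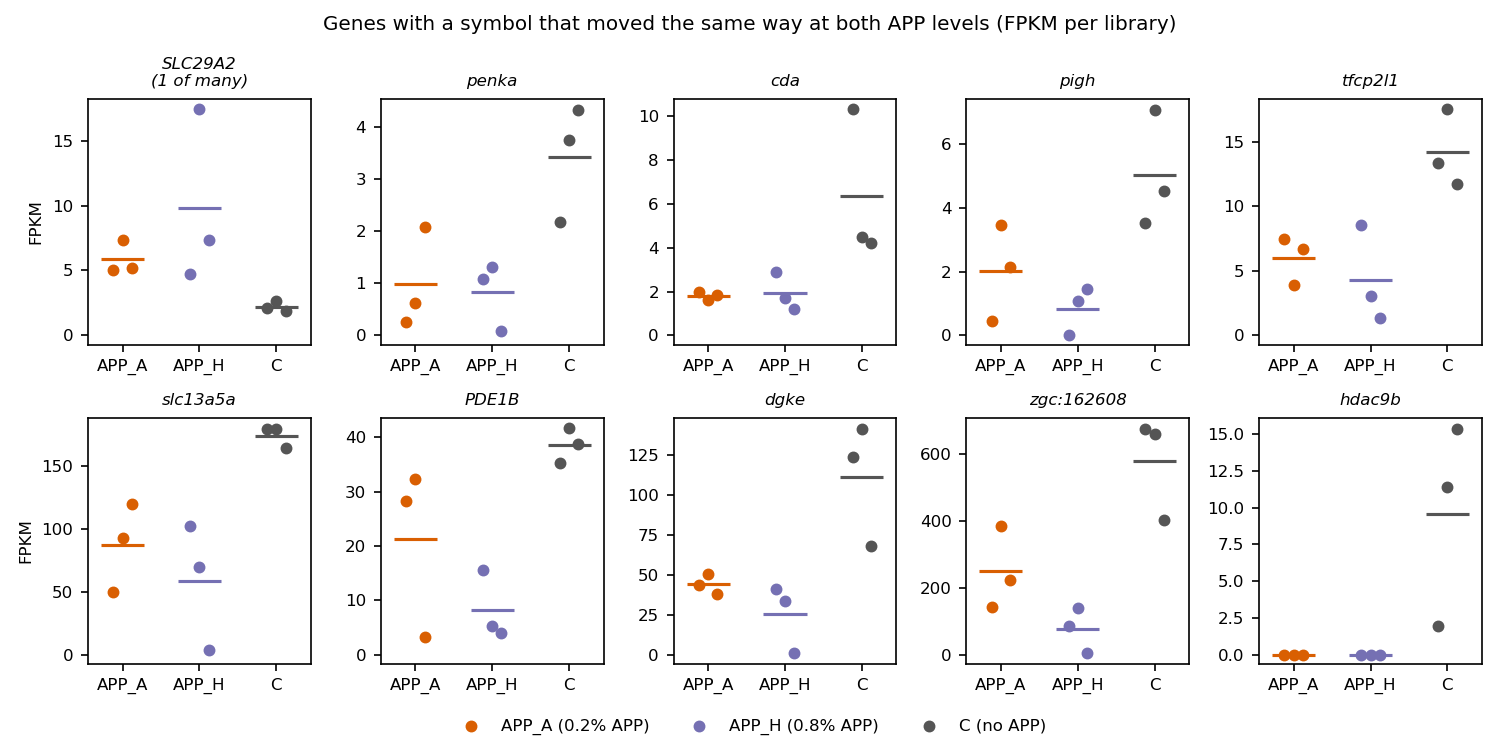
FPKM (vertical axis, linear, a scale of its own per panel) of the 10 genes with a symbol that moved the same way at both APP levels, by diet (horizontal axis). Points are libraries and lines are group means of 3; SLC29A2 is the only gene above C, and the lowest APP_H point of slc13a5a, dgke and zgc:162608 is APP_H3, at 3.53, 1.21 and 5.47 FPKM.

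A further 6 loci with an Ensembl identifier as their only or leading name moved the same way, all lower in APP. Besides XLOC_003597 they were XLOC_001310, which is merged with atp13a3 and had 0.50 to 3.35 FPKM in APP and 3.93 to 5.53 in C, XLOC_003426 with 0 to 8.19 and 17.7 to 20.9, XLOC_005683 with 0 to 1.49 and 3.06 to 6.23, XLOC_012347 with 1.37 to 17.6 and 18.1 to 41.9, and XLOC_024557 with 0 to 1287 and 1512 to 2012. The files used here give the other 5 no symbol.

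When APP_H3 was left out, 16 loci were called (0.0778%) and 170 moved the same way at both levels (0.826%). The 2 sets shared 102 loci, which is 89.5% of the 114 and 60.0% of the 170. With fewer APP libraries the condition of no overlap is easier to meet, and leaving out any other single library also gave more loci. Genes with a symbol then numbered 14 (0.147%). Penka no longer met the rule, and 5 genes joined. The gene timm8a, a chaperone of the mitochondrial intermembrane space, had FPKM values of 10.5, 2.78 and 18.5 in APP_A and 9.74, 7.77 and 1.75 in APP_H, against 2.28, 1.73 and 0 in C. The gene cox6b1, a subunit of cytochrome c oxidase, had 673, 173 and 640 in APP_A and 173, 1098 and 129 in APP_H, against 77.9, 162 and 127 in C. The gene mat2ab, which makes S-adenosylmethionine, had 59.9, 79.0 and 74.7 in APP_A and 151, 49.3 and 20.2 in APP_H, against 45.2, 27.2 and 32.7 in C. In each of the 3 genes APP_H3 reached into the range of C or below it. The other 5 APP libraries were above C, as the rule without APP_H3 asks. The gene th2, a tyrosine hydroxylase, joined as higher and dpcd as lower.

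Most differences that separated the 2 sets of libraries were small. Among genes with a symbol, 202 had no overlap between the 6 APP and the 3 C libraries, which is 2.12% of the 9534 tested against 1.91% of all loci. Both shares are under 0.0238, the rate that 6 against 3 libraries would give without any difference between the sets. No overlap alone therefore does not mark a gene as changed by diet. Of the 202, 95 were higher and 107 lower in APP, 186 had a |log2 fold change| under 1 and the median was 0.54. The 10 genes described next were not yet named, and were chosen after their values were seen as those with the lowest unadjusted p among the 202; each had an adjusted p of 1.00 by limma.

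Of these 10 genes, 6 were higher in APP. The gene dph2, of diphthamide synthesis on elongation factor 2, had FPKM values of 4.29, 2.88 and 4.30 in APP_A and 3.35, 3.11 and 2.96 in APP_H, against 1.70, 1.41 and 1.53 in C. This was a log2 fold change of 0.80 ± 0.19 (SE). The gene nop58, a core protein of box C/D small nucleolar ribonucleoproteins, had 7.21, 6.47 and 10.2 in APP_A and 10.6, 6.22 and 5.75 in APP_H, against 2.71, 4.09 and 3.84 in C. The gene riok2, a kinase of small ribosomal subunit maturation, had 2.5 to 4.23 in APP_A and 2.02 to 3.31 in APP_H, against 0.99 to 1.87 in C. Having been chosen for no overlap, each of the 3 had to lie on the same side of C at both levels. The differences on the log2 scale were 0.91 and 0.70 for dph2, 0.97 and 0.88 for nop58 and 0.91 and 0.68 for riok2 in APP_A and APP_H. The mitochondrial carrier slc25a43 ranged over 2.29 to 5.87 in APP and 1.39 to 1.72 in C, and lrrc15, a leucine-rich repeat membrane protein, over 8.68 to 14.2 in APP and 3.65 to 5.95 in C. The nuclear transport factor nxt2 ranged over 2.11 to 3.72 in APP and 1.3 to 1.61 in C.

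The other 4 genes were lower in APP. The gene trmu, which thiolates mitochondrial transfer RNAs, had FPKM values of 1.24, 1.1 and 1.16 in APP_A and 1.35, 1.22 and 1.69 in APP_H, against 2.41, 3.44 and 2.76 in C. Its APP libraries lay close together, APP_H3 included. The gene uchl5, a deubiquitinase of the proteasome, had 4, 3.61 and 7.83 in APP_A and 3.79, 5.46 and 5.59 in APP_H, against 9.59, 11.2 and 9.32 in C. The log2 fold changes were -0.75 ± 0.18 for trmu and -0.90 ± 0.27 for uchl5 (SE). The endoplasmic reticulum protein triqk ranged over 3.16 to 7.13 in APP and 8.22 to 11.2 in C, and srgap3, a GTPase-activating protein, over 0.43 to 1.42 in APP and 1.99 to 3.22 in C.

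The 26 lists of genes for liver functions held 925 tested loci. None was called (background 0.0583%), as no gene with a symbol was, and none moved the same way at both levels (0.554% of all loci and 0.105% of genes with a symbol). At an unadjusted p under 0.05 there were 8 (0.865%), 2 higher and 6 lower, against 2.97% of all loci and 1.59% of genes with a symbol. No overlap between APP and C was found for 11 (1.19%, against 1.91% of all loci and 2.12% of genes with a symbol). Higher in all 6 APP libraries were acsl4a, an acyl-CoA synthetase for arachidonic acid, psme4a, a proteasome activator, txnrd1, a thioredoxin reductase, and ATP6V1C1 (1 of many) at XLOC_009621, a subunit of the vacuolar proton pump. The FPKM of acsl4a was 5.93, 5.26 and 4.41 in APP_A and 6.59, 4.58 and 3.40 in APP_H, against 2.53, 1.92 and 2.83 in C, a log2 fold change of 0.80 ± 0.23 (SE, adjusted p = 1.00). Its locus shares its listed coordinates with nxt2, so the values of the 2 genes may draw on the same reads. Lower in all 6 APP libraries were arntl1a, CYP2J2 (1 of many) at XLOC_004019, gba2, cfd, irf2, psmd13 and mmp14a. The other loci named CYP2J2 overlapped C, some of them far more abundant. XLOC_004039 had 14.65 to 270 FPKM in APP and 76.8 to 232 in C, against 0.84 to 6.96 and 8.92 to 9.16 at XLOC_004019. The FPKM of mmp14a, a membrane-bound matrix metalloproteinase, was 3.05, 2.22 and 4.68 in APP_A and 3.86, 3.32 and 1.90 in APP_H, against 5.67, 6.42 and 6.93 in C (log2 fold change -0.85 ± 0.26, SE). For irf2, an interferon regulatory factor, it was 8.89, 9.05 and 8.21 in APP_A and 5.94, 5.99 and 5.90 in APP_H, against 12.96, 10.7 and 10.7 in C. Its 3 APP_H libraries lay below its 3 APP_A libraries, and APP_H3 was like the other 2. The glucosylceramidase gba2 had 3.30 to 7.01 in APP and 8.52 to 11.2 in C, and the complement protease cfd had 15.1 to 19.9 in APP and 22.5 to 32.0 in C.

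Lists of hepatocyte metabolism had median log2 fold changes below that of all loci, which was -0.04, and most of that distance was lost without APP_H3. Among all loci tested, 46.8% were higher in APP by sign, and 46.3% without APP_H3. In fatty acid oxidation, 28 of 29 loci were lower in APP by sign and none passed the test. The median was -0.46 with APP_H3 and -0.14 without it, where 20 of 29 were lower. By level, the median was -0.07 in APP_A and -0.75 in APP_H, and -0.15 in APP_H without APP_H3. The gene cpt1aa, which carries fatty acids into mitochondria, had FPKM values of 22.6, 14.7 and 21.4 in APP_A and 15.1, 34.04 and 18.3 in APP_H, against 29.9, 40.6 and 27.5 in C, with APP_H2 inside the range of C. The peroxisomal oxidation enzyme ehhadh had 40.2, 30.7 and 39.9 in APP_A and 73.3, 40.8 and 5.25 in APP_H, against 76.2, 77.1 and 54.4 in C.

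In amino acid breakdown and the urea cycle, 35 of 40 loci were lower, with a median of -0.63, and without APP_H3 26 were lower, with a median of -0.14. In bile acid synthesis and export, 10 of 11 were lower, with medians of -0.96 and -0.41 with and without APP_H3. The bile acid enzyme amacr had 5.83, 9.08 and 6.81 in APP_A and 16.3, 2.94 and 1.61 in APP_H, against 14.7, 15.5 and 14.8 in C, so that only APP_H1 was above C. Xenobiotic metabolism had medians of -0.48 and -0.08 with and without APP_H3, and 36 and 24 of its 45 loci were lower. Complement and coagulation changed its sign, with medians of -0.57 and 0.11 and 33 and 11 of 38 loci lower. Over the 42 hepatocyte markers the medians were -0.68 and 0.05, so these lists moved with APP_H3 as the markers did, and the part of cell makeup was not tested. Exocrine pancreas markers were also lower by sign, in 12 of 12 loci with APP_H3 and 11 of 12 without it, at medians of -0.93 and -0.30. Their mean log2(FPKM + 1) was 4.08 in APP_H3 and 5.90 in APP_A2. It was 8.08 to 8.98 in the other APP libraries and 7.87 to 8.71 in C. Without APP_H3 the median of APP_H minus C was 0.10, so the lower sign did not hold across the APP libraries. Their summed FPKM ranged over 624 to 32769 in APP and 11652 to 24651 in C and so overlapped.

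**Figure D5:**
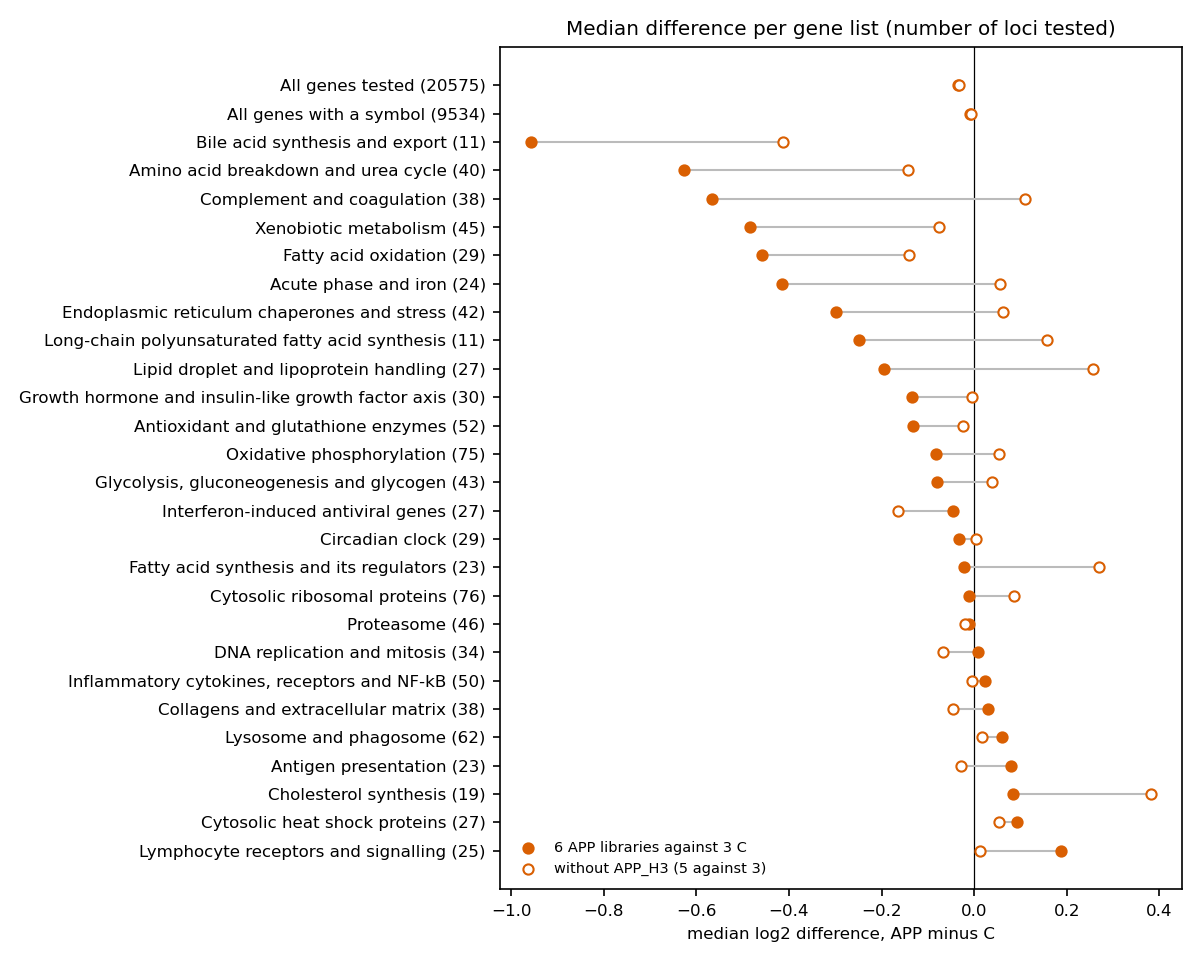
Median log2 difference of APP minus C (horizontal axis) for all loci, all genes with a symbol and each of the 26 lists (rows, number of loci tested in brackets), from all libraries (filled points) and without APP_H3 (open points). Bile acid, amino acid, complement, xenobiotic and fatty acid oxidation lists lie at -0.46 or below with all libraries and between -0.41 and 0.11 without APP_H3.

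Lists of lipid synthesis differed among themselves. Long-chain polyunsaturated fatty acid synthesis had a median log2 fold change of -0.25 with 8 of 11 loci lower, and of 0.16 with 4 lower without APP_H3. Cholesterol synthesis had a median log2 fold change of 0.08 over 19 loci, 11 of them higher, and of 0.38 without APP_H3, with 13 higher. Its gene fdps, of isoprenoid synthesis, had FPKM values of 4.88, 2.28 and 2.92 in APP_A and 12.3, 5.03 and 6.85 in APP_H, against 2.12, 2.36 and 2.24 in C. The gene hmgcs1, of the first steps to mevalonate, had 15.7, 10.8 and 15.8 in APP_A and 60.5, 25.4 and 10.1 in APP_H, against 9.65, 11.9 and 7.51 in C. In both genes some APP libraries lay inside the range of C, and neither passed the test (adjusted p = 1.00). Fatty acid synthesis had medians of -0.02 and 0.27 with and without APP_H3. In the list of lipid droplet and lipoprotein genes, angptl4, a secreted inhibitor of lipoprotein lipase, had 14.5, 32.1 and 7.07 in APP_A and 5.61, 10.3 and 2.62 in APP_H, against 27.4, 29.2 and 43.0 in C. Only APP_A2 overlapped C, and the log2 fold change was -1.72 ± 0.63 (SE, adjusted p = 1.00).

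The medians of the immune lists were on opposite sides of 0 at the 2 levels, which was not particular to them. Endoplasmic reticulum chaperones and stress had 0.23 in APP_A and -0.76 in APP_H, and collagens and extracellular matrix had -0.12 and 0.26. Other lists, such as fatty acid oxidation, were on the same side at both levels. Among the immune lists, interferon-induced genes had a median log2 difference of -0.36 in APP_A and 0.57 in APP_H, and 0.33 in APP_H without APP_H3. Their pooled median was -0.05 with 15 of 27 loci lower, and -0.16 with 20 lower without APP_H3. Their mean log2(FPKM + 1) was 3.68, 3.01 and 2.99 in APP_A and 3.33, 4.46 and 4.08 in APP_H. In C it was 3.33, 2.91 and 4.52, so the highest library was C3 and single libraries did not follow the diet. Lymphocyte genes had a median of -0.20 in APP_A and 0.62 in APP_H, and 0.37 in APP_H without APP_H3. Pooled it was 0.19 with 20 of 25 loci higher, and 0.01 with 13 higher without APP_H3. The mean log2(FPKM + 1) of lymphocyte genes was 2.13 in APP_A1, above all C libraries (1.81 to 2.02), and 1.78 in APP_H1, below them. It was 1.14 and 1.48 in the other APP_A libraries and 2.79 and 2.88 in the other APP_H libraries. Lymphoid marker loci summed to 197 FPKM in APP_H3, against 17.2 to 103 in the other APP libraries and 43.3 to 49.1 in C, and the part of cell makeup was not tested. The T cell coreceptor cd8a had FPKM values of 0.59, 0 and 0 in APP_A and 0, 3.39 and 1.56 in APP_H, against 2.72, 4.8 and 1.24 in C, with overlap. The granulocyte peroxidase mpx had 2.15, 3.27 and 1.82 in APP_A and 3.38, 3.11 and 6.27 in APP_H, against 1.31, 1.06 and 1.96 in C, and only APP_A3 overlapped C. Antioxidant and glutathione enzymes had a median of -0.13 over 52 loci, 33 of them lower, and of -0.02 with 27 lower without APP_H3. Among them srxn1, which repairs oxidized peroxiredoxins, had 5.31, 2.81 and 1.62 in APP_A and 4.57, 2.22 and 2.39 in APP_H, against 4.97, 6.19 and 4.27 in C.

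For the genes lpl, igf2, tlr2, hsp90b1, fads2, NFKB1 and nfkb2 of lipid transport, growth, stress and inflammation, the APP libraries did not all lie above or all below those of C. Lipoprotein lipase, lpl, had FPKM values of 10.7, 43.1 and 20.4 in APP_A and 99.2, 76.8 and 42.7 in APP_H, against 19.1, 23.6 and 11.1 in C. Its differences from C were 0.30 in APP_A and 1.95 in APP_H, and the pooled log2 fold change was 1.12 ± 0.69 (SE, adjusted p = 1.00). The growth factor igf2 had 11.4, 2.51 and 8.44 in APP_A and 4.45, 5.18 and 0.84 in APP_H, against 45.02, 13.2 and 3.91 in C. The C libraries of igf2 differed widely, and its log2 fold change of -1.44 ± 0.78 (SE) was -0.62 when C1 was left out and -2.23 when C3 was left out. The endoplasmic reticulum chaperone hsp90b1 had 51.6, 163 and 199 in APP_A and 32.1, 35.01 and 14.7 in APP_H, against 212, 56.0 and 180 in C. Its APP_H libraries were below all C libraries, while those of APP_A overlapped them. The receptor tlr2 had 0.97, 0.11 and 0.25 in APP_A and 1.08, 2.44 and 10.4 in APP_H, against 0.58, 0.22 and 0.28 in C, with the highest value in APP_H3. For nfkb2, a subunit of the transcription factor NF-kappa-B, the values were 10.1, 8.83 and 5.75 in APP_A and 12.1, 19.3 and 55.4 in APP_H, against 5.91, 6.95 and 17.4 in C. APP_H3 was again the highest, and the log2 fold change was 0.57 with it and 0.19 without it. For the 2 loci of the desaturase fads2, XLOC_004889 and XLOC_004890, pooled log2 fold changes were 0.15 and 0.29 with APP_H3. Without it they were 0.76 and 0.90. By level, XLOC_004889 differed from C by 0.63 in APP_A and -0.34 in APP_H, or 0.96 in APP_H without APP_H3. XLOC_004890 had FPKM values of 470, 511 and 283 in APP_A and 444, 77.6 and 22.2 in APP_H, against 164, 181 and 136 in C. It differed from C by 1.35 in APP_A and -0.78 in APP_H, or 0.22 in APP_H without APP_H3. Of its APP libraries, 4 were above all C libraries and 2 below. In the fit nearest to 0 among those that left out a single library, XLOC_004890 was at 0.0079. For NFKB1 the log2 fold change was 0.06 with APP_H3 and -0.03 without it. Both loci of fabp2, an intestinal fatty acid binding protein, were listed at 0 except for 0.36 FPKM in APP_A1 and were not tested.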

How the data were processed

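The authors sequenced poly(A) liver RNA, and the paper names TopHat 2 for alignment and Cufflinks for quantification; the deposited values are FPKM per locus and library. The submitters' processing notes instead name Bowtie 0.12.2, HISAT2 2.0, StringTie 1.3.0 and a mouse build, while the table lists tilapia identifiers. The build is not given in the sources used here, so coordinates are printed as listed. The table holds no counts, so counting intervals were not computed; the paper lists read totals per library, which were not used here, and the depth behind each value is unknown from the table.

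After the filter described above, log2(FPKM + 1) was fitted with limma 3.58.1 in R 4.3.3, using an intensity trend, 1 mean for the 6 APP and 1 for the 3 C libraries. Calls combined the fold and adjusted p limits given above. Adding 1 understates the change of low genes. On simulated data of this comparison (20575 genes), limma called 34 of 200 genes shifted by a log2 of 2 (17%). It called 116 of 200 shifted by 4 (58%). It also called 4 unchanged genes at the shift of 2 and 10 at the shift of 4. The simulated spread was that within diets, and both diets were shifted alike. It thus leaves out the difference between the diets, which the pooled fit includes. The shifted genes were drawn only from genes with a mean log2(FPKM + 1) above 3. The rates thus do not show how often genes of low FPKM, or loci absent from one set of libraries, would be called.

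The comparison, gene lists and naming rule were chosen with earlier results of these data known. Lists were matched by symbol. Named were called genes with a symbol; genes with a symbol that moved the same way at both levels, up to 10 per direction by unadjusted p, without those at 0 in a library where the other 8 had a median of 10 FPKM or more; lpl, igf2, fabp2, tlr2, hsp90b1, fads2, nfkb1 and nfkb2; the 2 members of each list with the lowest p, of which some are described; and called loci without a symbol, up to 5 per direction. Other names were chosen after their values were seen, and a gene that the rule names is not reported here. Alternatives were other pseudocounts, filters, scalings and variance settings, zeros as missing, a replicate block, single libraries left out and other definitions of a call.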

Additional observations from a re-analysis of the deposited data

Results flagged for a closer look

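In groups of 6 APP libraries, the gap of 1 library to its neighbour exceeded the 95% limit of Dixon's test for 14 of 87 named loci, where chance flags about 1 in 20 groups. In 11 of the 14 the library was APP_H3. Below the other 5 APP libraries lay its FPKM values for zgc:162608 (5.47), dgke (1.21), slc13a5a (3.53), fads2 at XLOC_004889 (7.33), ehhadh (5.25), abcb11b (0.49), CYP2J2 at XLOC_004019 (0.84), kmo (1.91), hspe1 (3.01), C3 at XLOC_017909 (1.06) and rplp2 (1278). Most of these genes are abundant in hepatocytes, whose markers were low in the same library, and the part of cell makeup was not tested. APP_H2 lay above the other APP libraries for SLC29A2 (17.4) and for XLOC_036970 (195). APP_A1 was the only library with a value above 0 for fabp2, at 0.36 FPKM.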

How the results depend on the processing

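The count of 12 called loci stayed between 9 and 17 under other pseudocounts, filters, scalings and variance settings, a replicate block and 1 mean per diet. The 17 came from the fit with 1 mean per diet, whose spread leaves out the difference between the diets. It was 1 when only loci of at least 500 bases entered the adjustment of p, and 1 for only loci with an Ensembl gene (both chosen after seeing the data). With p adjusted over all loci, XLOC_003597 (2230 bases) and XLOC_007906 (1394 bases) were the called loci of at least 500 bases. The count was 438 with an unadjusted p and the fold change. Leaving out single libraries gave 10 (without APP_A3) to 19 (without APP_A1) calls. The count of 114 loci that moved the same way at both levels was 213 with zeros as missing, 223 with a log2 difference of at least 0.5 at each level, 1204 with the fold at both levels alone, 49 for loci of at least 500 bases and 16 for loci with an Ensembl gene. Leaving out single libraries gave 155 to 338: 181 without APP_A1, 185 without APP_A2, 183 without APP_H1, 294 without C1, 304 without C2 and 338 without C3, since fewer libraries overlap less often by construction. Of the 12 loci, 9 to 11 kept their call in each of these fits; XLOC_012219 lost it in 8 of the 9, XLOC_034010 in 5 and XLOC_007906 in 2 (without APP_A3 and without C1), while hdac9b was called only without C1. The log2 fold change of fads2 at XLOC_004889 ranged over -0.19 to 0.76 when single libraries were left out, and was -0.11 without APP_A1, -0.06 without APP_H1 and -0.19 without C3, and that of NFKB1 ranged over -0.027 to 0.16 and was -0.0077 without APP_A1, -0.026 without APP_H3 and -0.027 without C1; the cause was not tested. With a replicate block 9 loci were called. The deviations of same-numbered libraries correlated at -0.07 to 0.13 over 9 pairs, so the numbers were not taken to pair the libraries.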
